A study of Mus musculus with 3 samples.

Results

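Fn1, the fibronectin gene of the mouse, and the 4 tenascin genes Tnc, Tnn, Tnr and Tnxb encode large glycoproteins of the extracellular matrix. These 5 genes were picked by name from the 21782 genes of the count table, with their levels in these libraries already known, so that the levels are a description and carry no test. The libraries were made from polyA+ RNA of primary mouse embryonic fibroblasts (MEFs) of WT genotype, isolated from E12.5 embryos and kept in medium with 20% fetal bovine serum. Asynchronous cells of 3 clones gave 1 library each, which the labels number R1 to R3 and call control, and no treatment is named. All 3 libraries belong to 1 condition, so no groups were compared. The labels do not name the strain or say whether the clones came from different embryos, and the spread between the 3 libraries may therefore be technical in part. A clone cannot be told apart from its culture or its library.

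Fibronectin is secreted as a dimer and pulled into fibrils by cells that hold it through integrins, above all the integrin of the Itga5 and Itgb1 subunits. Tenascins share a plan of EGF-like repeats, fibronectin type III repeats and a fibrinogen-like globe at the C-terminal end, and they modify how cells adhere to fibronectin. Tenascin-C (Tnc) is typical of embryonic and wounded tissue, tenascin-W (Tnn) of developing bone and tumour stroma, tenascin-R (Tnr) of the central nervous system, where it lies in perineuronal nets, and tenascin-X (Tnxb) of loose connective tissue, where it binds collagen fibrils.

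The cells carried RNA of the fibroblast list. All 8 of its genes reached 1 count per 1000000 counts (CPM, TMM-scaled) in every clone, against 52.2% of all genes. Their summed level was 56133 CPM in clone 1, 46685 in clone 2 and 45168 in clone 3. Within that list Col1a1 was at 27713 ± 3778 CPM (SD, n = 3), while Pdgfra, Dcn and Lum were low, at 18.6 ± 7.92, 7.73 ± 2.62 and 2.03 ± 1.19 CPM. Clone 2 stood apart in its macrophage genes. All 11 genes of that list were highest there, and their sum was 1872 CPM in clone 2, against 398 CPM in clone 1 and 330 CPM in clone 3. All 6 proliferation genes were also highest in clone 2 and lowest in clone 1, with sums of 368, 723 and 609 CPM in clones 1, 2 and 3. Values without clone 2 are therefore given for the members and for each list gene whose printed fold was at least 1.5. In bulk RNA, fewer cells of a type and less RNA per cell cannot be told apart.

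Fn1 (ENSMUSG00000026193.15) lies on chromosome 1 of GRCm38, the assembly also called mm10, from 71585520 to 71653200 on the minus strand. Its annotated exons cover 11685 bp, and its longest coding transcript has 8315 nt and encodes 2477 residues. The RGD codons of Fn1 and Tnn are shown because this tripeptide is how integrins hold fibronectin, and of the 4 tenascin genes only Tnn was found to encode it. The Fn1 copy at residues 1614 to 1616 is the known cell-binding site, for integrins of the Itga5 and Itgav classes, whereas the copies at residues 2181 to 2183 and in Tnn were found as matches of letters only. Each stretch has 81 bases of coding strand from GENCODE M21, written 5′ to 3′, with the RGD codons in capitals.
Fn1, residues 1614 to 1616, exon 30 of 46, chr1:71606710-71606790, minus strand: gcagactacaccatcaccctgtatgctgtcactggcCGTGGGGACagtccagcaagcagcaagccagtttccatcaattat
Fn1, residues 2181 to 2183, exon 40 of 46, chr1:71597407-71597487, minus strand: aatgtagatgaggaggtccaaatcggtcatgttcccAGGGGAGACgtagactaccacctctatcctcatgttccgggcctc
Tnn, residues 427 to 429, exon 6 of 22, chr1:160139250-160139330, minus strand: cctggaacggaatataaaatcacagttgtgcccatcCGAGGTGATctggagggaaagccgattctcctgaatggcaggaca
The 3 copies spell the same 3 residues with 3 different strings of 9 bases, although both Fn1 copies end in the codon GAC. The annotated Tnc, Tnr and Tnxb proteins held 0 matches of RGD.

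Fn1 was among the most abundant transcripts of these cells. Clones 1, 2 and 3 gave 897524, 463292 and 635634 Fn1 counts. After scaling, these were 36125, 20546 and 25166 CPM, with a mean of 27279 ± 8002 CPM (SD, n = 3). Clone 1 was the highest and clone 2 the lowest, and in every clone Fn1 ranked first or second of all genes by CPM, next to Col1a1, which encodes a chain of type I collagen. In clone 3 the counts of Fn1 and Col1a1, 635634 and 635170, differed by less than the counting error of either. Fn1 alone took 3.55% of all counts in clone 1 (95% Wilson interval 3.546 to 3.56), 2.05% in clone 2 (2.045 to 2.056) and 2.56% in clone 3 (2.558 to 2.57). These intervals, and all others given here, cover counting error only, because the reads carry no molecular identifiers.

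The rank of Fn1 was lower once levels were set per length. Per kb of annotated exon its level was 3092, 1758 and 2154 CPM in clones 1, 2 and 3, with a mean of 2335 ± 685 (SD, n = 3), and its rank among all genes was then 2, 12 and 6. Fn1 counts per kb were 0.633, 0.445 and 0.562 of those of Col1a1 in the same clones, so that on this scale Fn1 stayed below Col1a1 in each of them. Thbs1, whose product thrombospondin 1 is a matrix glycoprotein that binds fibronectin, was at 2967 ± 134 CPM per kb, and it differed little between clones (1.09-fold).

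Tnc (ENSMUSG00000028364.15) lies on chromosome 4 of GRCm38 from 63959785 to 64047015 on the minus strand. Its exons cover 7772 bp, and its longest coding transcript of 7106 nt encodes 2110 residues. Counts of Tnc were 152076, 195974 and 156699 in the 3 clones, which were 6121, 8691 and 6204 CPM, or 7005 ± 1460 CPM (SD, n = 3). Clone 2 was the highest for Tnc, whereas clones 1 and 3 were nearly equal. The gene ranked 13, 6 and 10 by CPM in the 3 clones and took 0.602%, 0.867% and 0.632% of all counts. Per kb of exon it was at 788, 1118 and 798 CPM, or 901 ± 188 (SD, n = 3).

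The other tenascin genes had few counts. Tnn (ENSMUSG00000026725.17; chromosome 1, 160085029 to 160153580, minus strand, 5817 bp of exon, 1560 residues) had 65, 175 and 109 counts in clones 1, 2 and 3. These were 2.62 CPM (exact Poisson interval 2.02 to 3.33), 7.76 CPM (6.65 to 9.0) and 4.32 CPM (3.54 to 5.21), with a mean of 4.9 ± 2.62 CPM (SD, n = 3). Every pair of clones had intervals that did not overlap, with clone 2 the highest and clone 1 the lowest. Tnxb (ENSMUSG00000033327.16; chromosome 17, 34670535 to 34719815, plus strand, 12209 bp, 4006 residues) had 15, 26 and 9 counts, or 0.604 CPM (0.338 to 0.996), 1.15 CPM (0.753 to 1.69) and 0.356 CPM (0.163 to 0.676). Its mean was 0.704 ± 0.408 CPM (SD, n = 3). Clone 2 was the highest for Tnxb as well, but its interval overlapped with that of clone 1. Of the 86-nt stretches of the Tnxb transcript, 9.06% matched Tnxa, a partial copy of the gene, within 2 mismatches, so that part of these few counts could belong to either gene. Tnr (ENSMUSG00000015829.13; chromosome 1, 159523769 to 159931729, plus strand, 12867 bp, 1358 residues) had 0, 0 and 1 counts in the same clones. As a one-sided 95% limit, a count of 0 allows up to 3 counts, which is 0.121 CPM in clone 1 and 0.133 CPM in clone 2. The upper ends of the two-sided exact intervals used for the other genes were 0.148 and 0.164 CPM, and the single count of clone 3 was 0.0396 CPM (0.001 to 0.221). Beyond this single count, Tnr was not detectable at this depth.

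**Figure D1:**
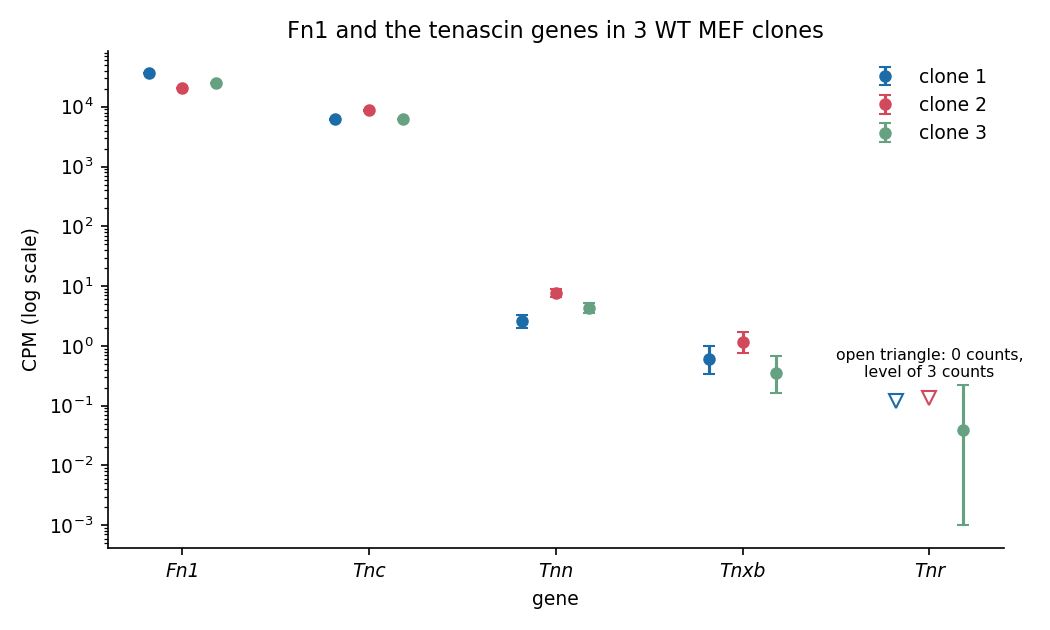
Level of each gene in each of the 3 WT clones, in CPM on a log axis. Points are single libraries, bars are 95% exact Poisson intervals (smaller than the points for Fn1 and Tnc), and open triangles mark 0 counts, drawn at the level of 3 counts. Fn1 at 20546 to 36125 CPM and Tnc at 6121 to 8691 CPM lie far above Tnn at 2.62 to 7.76 CPM, Tnxb at 0.356 to 1.15 CPM and Tnr.

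Levels of different genes were compared per kb of exon, and the order was Fn1, Tnc, Tnn, Tnxb and Tnr in 3 of 3 clones. The lowest Fn1 value (1758 CPM per kb, clone 2) was above the highest Tnc value (1118 CPM per kb, also clone 2). Tnc at 901 ± 188 and Tnn at 0.842 ± 0.451 CPM per kb did not overlap either, and Tnc was 1751, 838 and 1076 times as high as Tnn in clones 1, 2 and 3. Tnn was 9.1, 14.1 and 25.4 times as high as Tnxb, which was at 0.0577 ± 0.0334 CPM per kb. The last neighbours, Tnxb and Tnr, could not be separated in clone 3, where 9 counts and 1 count had overlapping intervals. Per kb of the longest coding transcript in place of all exons, the order was the same in 3 of 3 clones.

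Within the tenascin family nearly all counts belonged to Tnc. Its share of the summed tenascin counts was 99.95% in clone 1 (95% Wilson interval 99.93 to 99.96), 99.9% in clone 2 (99.88 to 99.91) and 99.92% in clone 3 (99.91 to 99.94). Tnn took 0.0427%, 0.0892% and 0.0695% in the same clones, so that its share was also highest in clone 2. Tnxb took 0.00986%, 0.0133% and 0.00574%. These shares do not depend on how libraries were scaled, and dividing by exon length left the mean Tnc share at 99.9%.

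The ratio of Fn1 to Tnc was less even between clones than either gene. Fn1 had 5.9, 2.36 and 4.06 times as many counts as Tnc in clones 1, 2 and 3. Per kb of exon the ratio was 3.93, 1.57 and 2.7, with a mean of 2.73 ± 1.18 (SD, n = 3), and per kb of the longest coding transcript it was 3.51 ± 1.51. The highest ratio was 2.5 times the lowest, since clone 2 had the lowest Fn1 and the highest Tnc. Without clone 2 the mean ratio per kb of exon was 3.31.

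Fold differences between the highest and the lowest clone were read against all genes. Of the 5 members, 3 (Fn1, Tnc and Tnn) had at least 10 counts in every clone, as had 12218 genes in all, while Tnxb and Tnr did not pass this filter. Fn1 and Tnn, 2 of these 3, differed by at least 1.5-fold, and so did 22.3% of all genes that passed. Only Tnn differed by at least 2-fold, as did 8.38% of all genes. All 3 had counting intervals of the highest and lowest clone that did not overlap, which was also so for 57.2% of all genes. With 3 genes, chosen with these values known, nothing follows about the family as a group.

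Fn1 was 1.76-fold higher in clone 1 than in clone 2 (interval of the ratio 1.75 to 1.76), a larger fold than that of 87.2% of all genes, and its coefficient of variation was 29.3% against a median of 11.3%. The 109 genes that averaged 1000 CPM or more had a median fold of 1.21, and 10 of them, Fn1 included, passed 1.5-fold. Of those 10, 4 were highest in clone 1 and 6 in clone 2. The 1.5-fold call of Fn1 rested on clones 1 and 2: the fold was 1.22 without clone 1 and 1.44 without clone 2. Tnc was 1.42-fold higher in clone 2 than in clone 1 (1.41 to 1.43), above 72.0% of all genes and short of the 1.5-fold call, and without clone 2 it was 1.01. Tnn was 2.97-fold higher in clone 2 than in clone 1 (2.22 to 4.01), above 97.1% of all genes, and its fold was 1.65 without clone 2 and 1.8 without clone 1. Tnxb, which was not in the filter, had a ratio of 3.24 between clones 2 and 3 with a wide interval of 1.47 to 7.85. Its ratio was 1.69 without clone 2 and 1.91 without clone 3.

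**Figure D2:**
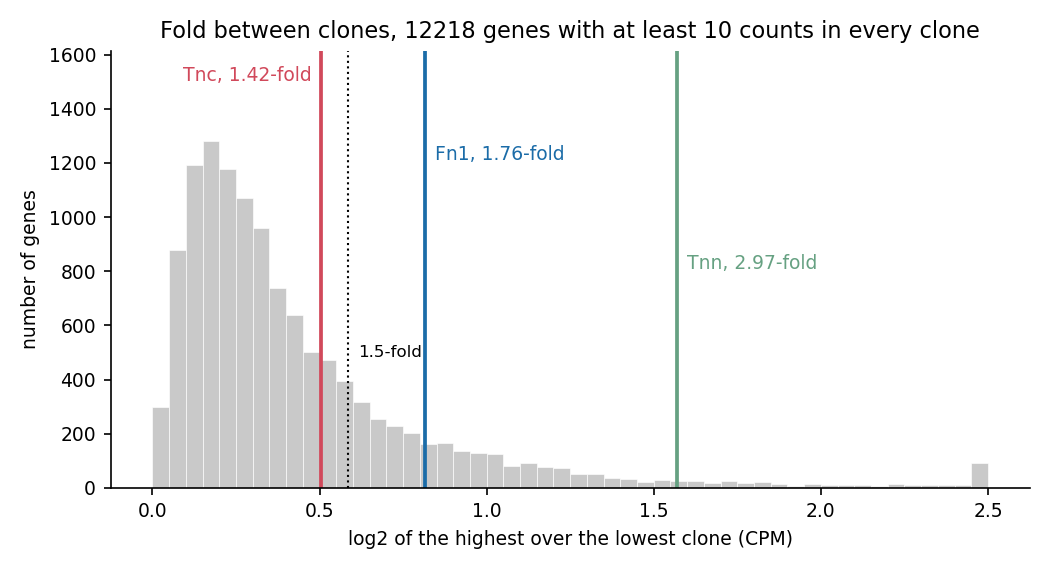
Histogram of the log2 ratio of the highest to the lowest clone in CPM for 12218 genes, with the values of Tnc (1.42-fold), Fn1 (1.76-fold) and Tnn (2.97-fold) as coloured lines and 1.5-fold as a dotted line. The last bar gathers all genes at or beyond the right end of the axis. Tnc and Fn1 lie on the right shoulder of the distribution and Tnn in its tail.

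Fn1 and Tnc had opposite extremes. On the log2(CPM + 1) scale, Fn1 lay 0.45 above the mean of the 3 clones in clone 1 and at -0.37 in clone 2 and -0.08 in clone 3. Tnc lay at -0.18, 0.33 and -0.16, and Tnn at -0.61, 0.67 and -0.06. Clone 2 thus had the lowest Fn1, and the highest Tnc and Tnn, beside the highest macrophage and proliferation sums given above, and the part of these sums in the members' values was not tested. The fibroblast sum was highest in clone 1, as was Fn1, but Col1a1 and Col1a2 (1.27-fold and 1.29-fold between clones) made up most of that sum. Of the 8 fibroblast genes, 5 were highest in clone 1 and 3 in clone 2, namely Pdgfra (2.32-fold), Thy1 (1.59-fold) and Vim (1.11-fold). Without clone 2 the fold of Pdgfra was 1.43 and that of Thy1 was 1.02. Relative to Col1a1, Fn1 counts were 1.13, 0.792 and 1.0 in clones 1, 2 and 3, and Tnc counts were 0.191, 0.335 and 0.247.

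**Figure D3:**
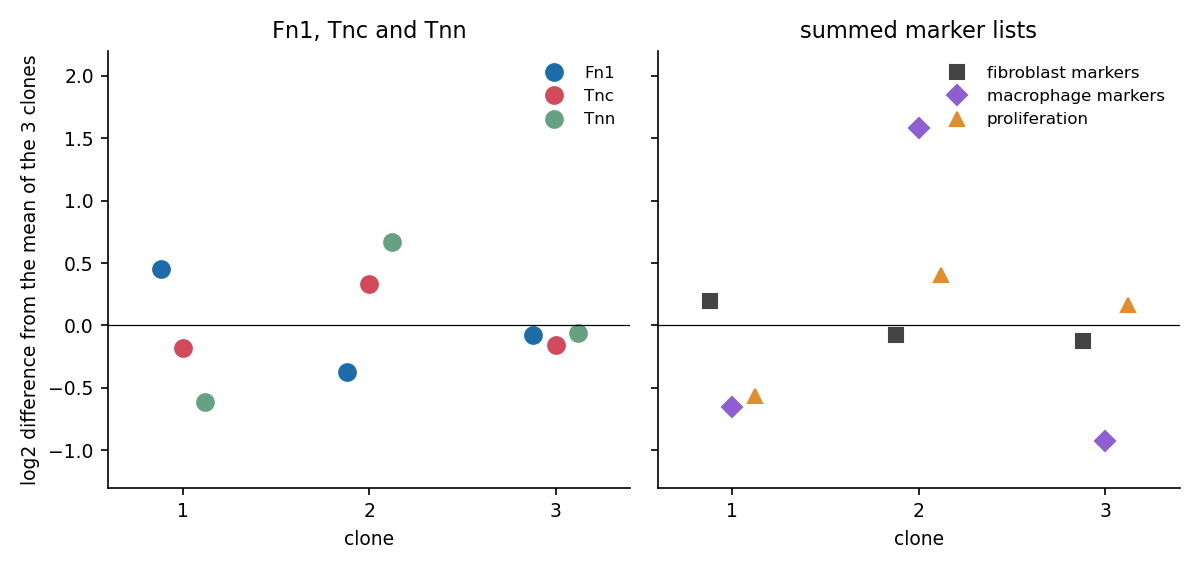
Left, log2 difference of Fn1, Tnc and Tnn in each clone from the mean of the 3 clones (log2(CPM + 1)). Right, the same for the summed CPM of the fibroblast, macrophage and proliferation lists. Points are single libraries. In clone 2, Fn1 is at -0.37 while Tnc is at 0.33 and Tnn at 0.67, and the macrophage sum (1872 CPM) stands furthest from the other clones.

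The genes whose pattern over the 3 clones was most like that of Fn1 were found by the Euclidean distance between their log2(CPM + 1) deviations, among 1721 genes that averaged 100 CPM or more. They were Ltbp3 (distance 0.0362), Grina (0.0467), Gpc4 (0.0607), Gas6 (0.0609) and Ltbp2 (0.0638). Ltbp3, which encodes a latent TGF-beta binding protein of the matrix, had 16837, 8627 and 11524 counts in clones 1, 2 and 3. Its relative Ltbp2 had 35727, 17525 and 25467 counts, so that both were highest in clone 1 and lowest in clone 2. The nearest genes to Tnc were Col12a1 (0.0266), Sh3kbp1 (0.0394), Lipa (0.0459), Loxl3 (0.0504) and Anxa2 (0.0641). Col12a1, the gene of a collagen to which tenascins are known to bind, had 38643, 50100 and 40823 counts, and Loxl3, of a lysyl oxidase-like enzyme, had 12870, 16708 and 13884. With 3 points such a likeness is easily met: 34 genes lay within a distance of 0.2 of Fn1 and 64 genes of Tnc.

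The proteins encoded by the 5 genes differ in length and in their repeats. Tenascin-X is the longest at 4006 residues, followed by fibronectin at 2477, tenascin-C at 2110, tenascin-W at 1560 and tenascin-R at 1358. A pattern of cysteines typical of EGF-like repeats matched 14 times in Tnc, 18 in Tnxb, 4 in Tnr, 3 in Tnn and 0 in Fn1. In global alignments end gaps carried no penalty, and identity was taken over aligned residue pairs only, not over the whole length. By this measure Tnc was 47.6% identical to Tnr (636 of 1336 pairs), 34.9% to Tnn and 34.3% to Tnxb. Fn1 was 25.1% to 29.4% identical to each tenascin. The last 220 residues, which hold the fibrinogen-like globe, were more alike: identity was 61.3% between Tnc and Tnr, 57.1% between Tnn and Tnr, 56.0% between Tnc and Tnn and lowest, at 50.7%, between Tnn and Tnxb. The closest relative of the abundant Tnc was thus Tnr, which had 1 count in all 3 libraries together. No 86-nt stretch of the Tnc transcript matched another tenascin gene within 2 mismatches.

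Counts per gene do not show which splice forms were made. The annotation of Fn1 has a cassette exon of 270 nt at chr1:71603660-71603929, in 4 of 7 full-length coding transcripts, and one of 273 nt at chr1:71613763-71614035, in 1 of 7. Their sizes and order are those of the exons known as EDA and EDB, which mark the cellular form of fibronectin. Tnc has a cassette exon of 273 nt at chr4:63984460-63984732, present in 1 of 3 such transcripts. Reads from the opposite strand could also enter a gene's count, as the strand setting was not named. Apol7d, annotated antisense to Fn1 over 292 bp (2.499% of its exons), had 3, 0 and 3 counts of its own.

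The bases before the start are shown for Tnc, the most abundant tenascin gene, and for Tnr, the one nearest to it in protein sequence and close to 0 here. Sequences are from RefSeq on GRCm38.p6, whose promoter windows matched 4 of the 5 genes, namely Tnc, Tnn, Tnr and Tnxb. Each is the 250 bases before the start on the gene's own strand, with the letters TATAAA and GGGCGG in capitals where they occur.
Tnc, chr4:64047016-64047265, minus strand: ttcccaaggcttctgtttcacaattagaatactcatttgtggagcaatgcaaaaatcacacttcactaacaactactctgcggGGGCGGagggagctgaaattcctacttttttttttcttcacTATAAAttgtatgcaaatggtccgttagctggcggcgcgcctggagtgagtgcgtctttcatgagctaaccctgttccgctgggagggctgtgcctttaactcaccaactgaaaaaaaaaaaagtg
Tnr, chr1:159523519-159523768, plus strand: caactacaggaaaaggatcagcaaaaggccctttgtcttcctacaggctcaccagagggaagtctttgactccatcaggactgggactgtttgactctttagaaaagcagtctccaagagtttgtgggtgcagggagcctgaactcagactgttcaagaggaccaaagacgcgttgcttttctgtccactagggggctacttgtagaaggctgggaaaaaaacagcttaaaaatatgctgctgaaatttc
Both strands of the 300-base windows, from 250 bases before to 50 after each start, were searched for both letter strings, which share no bases. In the Tnc window printed, TATAAA began at position -126 and GGGCGG at -167 relative to the start. The table holds another Tnc start further downstream (window chr4:64046887-64047186), and the same letters began at -205 and -246 relative to that one. The Tnr, Tnn and Tnxb windows held neither. Of 32851 such windows in the table, 13.6% held TATAAA and 35.7% held GGGCGG. A match of letters is not a site that a factor uses, and where transcription of Tnc began in these cells was not measured.

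Receptors of fibronectin were present in all clones. Of 10 listed receptor genes, 8 reached 1 CPM in every clone, against 52.2% of all genes. Itgb1, the shared beta subunit, was at 4522 ± 284 CPM and Itga5, its partner in the main fibronectin receptor, at 2769 ± 69.6 CPM (SD, n = 3). Both were even between clones, at 1.12-fold and 1.05-fold, where Fn1 itself differed 1.76-fold. Itgb5 was at 685 ± 135 CPM, Itgav at 601 ± 93.6 CPM, and Sdc4, the heparan sulfate proteoglycan that binds fibronectin beside the integrins, at 192 ± 23.4 CPM. Of the 9 receptor genes that passed the filter of 10 counts, 2 (Itga8 and Itgb8) passed 1.5-fold, against 22.3% of all genes, and 0 did without clone 2, against 9.79%. Itga8 had 1248, 681 and 1014 counts in the same order of clones as Fn1 (1.66-fold, and 1.25-fold without clone 2), and Itgb8 had 22, 13 and 28 counts (1.92-fold, and 1.25-fold without clone 2). Itgb6, an epithelial subunit, had 3, 2 and 1 counts.

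Among 10 receptor genes of tenascins, of which 4 (Itga8, Itgav, Itgb1 and Itgb6) are also on the fibronectin list, 8 reached 1 CPM in every clone, against 52.2% of all genes. These 8 were also the ones that passed the filter of 10 counts, and 1 of them (Itga8) passed 1.5-fold, against 22.3% of all genes. Anxa2, whose product annexin A2 binds tenascin-C, was at 1499 ± 262 CPM and highest in clone 2, as was Tnc (1.35-fold, and 1.02-fold without clone 2). Egfr, which the EGF-like repeats of tenascin-C are known to bind, was at 150 ± 7.84 CPM, Ptprz1, a receptor phosphatase of tenascins, at 84.1 ± 9.84 CPM, and Itga9 at 29.0 ± 2.81 CPM. Tlr4, which is bound by the fibrinogen-like globe of tenascin-C, had 150, 192 and 152 counts, again with the highest value in clone 2 (1.41-fold, and 1.0-fold without it). Macrophages also express Tlr4, and the summed macrophage list was at 398, 1872 and 330 CPM in the same clones, whose part in the Tlr4 counts was not tested. Cntn1, the neuronal receptor of tenascin-R, had 0, 2 and 7 counts, in libraries where Tnr had 0, 0 and 1.

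The genes listed for the assembly of fibronectin fibrils were all present, with 12 of 12 at 1 CPM or more in every clone, against 52.2% of all genes. The list was broad and took in matrix genes such as Fbln1, Ltbp1 and Bmp1, whose part in assembly itself was not examined. Their median fold of 1.14 between clones was below the 1.24 of all genes, and 1 of 12 passed 1.5-fold, against 22.3% of all genes. That gene was Fbln1, of the fibronectin-binding fibulin 1, with 1376, 1981 and 2034 counts (1.59-fold, and 1.45-fold without clone 2) and its lowest value in clone 1, where Fn1 was highest. The focal adhesion genes Vcl at 1843 ± 77.8 CPM and Tln1 at 1254 ± 40.5 CPM differed 1.09-fold and 1.07-fold. Bmp1, a matrix protease, had 28041, 20704 and 20152 counts with clone 1 the highest.

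Of 10 partners of tenascins in the matrix, 7 reached 1 CPM in every clone, against 52.2% of all genes. The same 7 passed the filter of 10 counts, and 4 of them (Vcan, Postn, Dcn and Fbln1) passed 1.5-fold, against 22.3% of all genes. Without clone 2 it was 2 of 7 (Vcan and Dcn), against 9.79%. Fbln2 was the most abundant partner at 7630 ± 1230 CPM, above Tnc by CPM, and Col12a1 was at 1798 ± 369 CPM. Postn, of the tenascin-C binding protein periostin, had 43051, 25118 and 36100 counts, with clone 1 the highest and clone 2 the lowest, whereas Tnc was highest in clone 2 and lowest in clone 1. Its fold was 1.56, and 1.21 without clone 2. Vcan, of the proteoglycan versican, was at 291 ± 62.8 CPM, highest in clone 3. The lecticans Ncan and Bcan of the nervous system were near 0, with 3, 1 and 0 counts for Ncan and 13, 7 and 9 for Bcan. Both are among the known partners of tenascin-R in perineuronal nets. Acan, a further lectican on the partner list, was not near 0, with 1120, 1027 and 1004 counts (43.5 ± 3.22 CPM). Of 10 glial and neuronal markers, 4 (Olig1, Olig2, Mog and Rbfox3) had 0 counts in every library.

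Of 12 genes known to act in the induction of Fn1 or the tenascins, 11 reached 1 CPM in every clone, against 52.2% of all genes. All 12 passed the filter of 10 counts, and 2 (Tgfb1 and Bmp2) passed 1.5-fold, against 22.3% of all genes. Without clone 2 it was 0 of 12, against 9.79%. Tgfb3 was the most abundant of 3 TGF-beta ligands at 545 ± 28.1 CPM, followed by Tgfb2 at 129 ± 6.99 CPM and Tgfb1 at 79.3 ± 20.3 CPM. Tgfb1 was the most uneven of them, with 1853, 2288 and 1559 counts (1.64-fold, and 1.21-fold without clone 2). Smad3, which carries the TGF-beta signal to the nucleus, differed 1.02-fold, and Prrx1, a mesenchymal factor known to act on Tnc, was at 209 ± 28.7 CPM, highest in clone 2. Bmp2 was the gene short of 1 CPM, at 13, 18 and 14 counts. By CPM, 9 of the 12 were highest in clone 2 and 3 in clone 1. Tnc and Tnn were also highest in clone 2, whereas Fn1 was lowest there. The folds of the 9 genes ran from 1.02 (Smad3) to 1.64 (Tgfb1), and a link of the list to the members was not tested. Between clones 1 and 3 alone, 6 were higher in each. Among all 12218 genes, 4298 were highest in clone 2, 4591 in clone 1 and 3329 in clone 3.

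**Figure D4:**
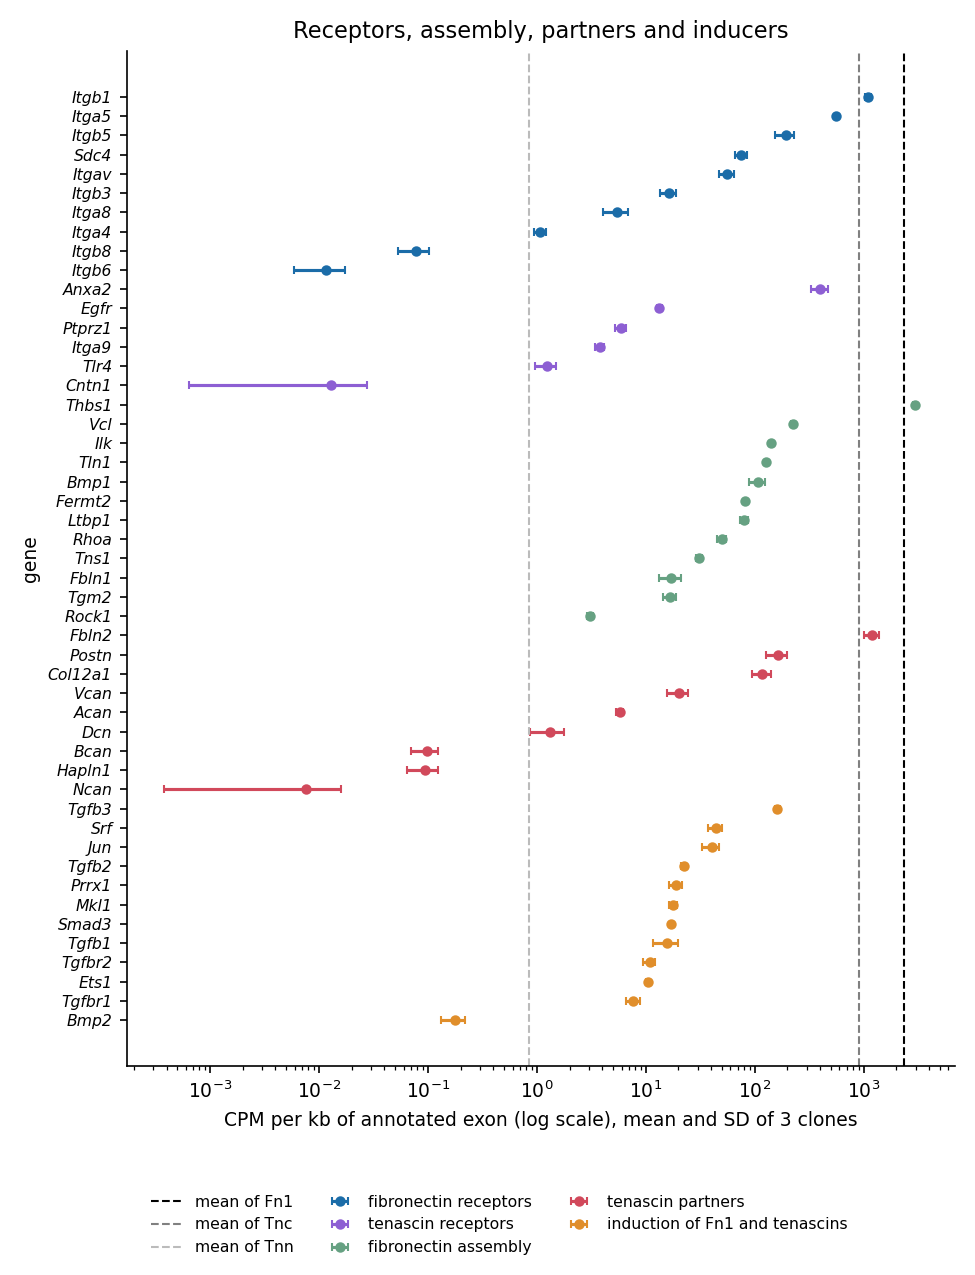
Mean level per kb of annotated exon of the receptor, assembly, partner and inducer genes (log axis), coloured by list, with bars for the SD over 3 clones. A gene on more than 1 list is drawn in the first, lower bars that would pass 0 are shortened to stay on the axis, and dashed lines give the means of Fn1 (2335), Tnc (901) and Tnn (0.842). Thbs1 lies above Fn1, Itgb1 and Fbln2 lie between Tnc and Fn1, and the nervous system genes Ncan and Cntn1 lie furthest left with Itgb6.

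Markers of bone, for which Tnn is known, and of epithelium and endothelium were also looked at. No list was made for loose connective tissue, for which Tnxb is known. Runx2 and Spp1 were the only 2 of 7 osteoblast genes at 1 CPM or more in every clone, against 52.2% of all genes. Runx2 was at 25.6 ± 1.6 CPM and Spp1 at 1838 ± 499 CPM. Sp7, the factor that commits cells to bone, had 8, 31 and 11 counts, and Ibsp had 3, 16 and 2. Sp7 and Ibsp, which did not pass the filter of 10 counts, were highest in clone 2, as was Tnn with 65, 175 and 109 counts. Of the other genes, Alpl had 8, 10 and 10 counts, Bglap 1, 1 and 0 and Dmp1 4, 4 and 3. Runx2 differed 1.13-fold and Spp1 1.75-fold between clones, and without clone 2 the fold of Spp1 was 1.56. The part of osteoblasts in the Tnn counts was not tested. Epithelium and endothelium each had 1 of 6 markers that reached 1 CPM throughout, against 52.2% of all genes. The endothelial one was Kdr, with 6.56, 9.49 and 12.4 CPM for clones 1, 2 and 3. Emcn was uneven, with 12.4, 0.177 and 9.58 CPM, but the endothelial genes did not share this pattern. Cdh5, Pecam1 and Vwf, each below 1 CPM, were highest in clone 2, with 0.266, 0.665 and 0.976 CPM there. Tek was lowest in clone 2, at 0.362, 0.266 and 0.356 CPM.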

How the data were processed

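The authors prepared TruSeq libraries from polyA+ RNA of 3 WT MEF clones and sequenced them as 86-nt single-end reads. Alignment was with TopHat2 2.0.0, with up to 2 mismatches and 5 positions a read. It ran on Bowtie, version 0.12.7, together with SAMtools, version 0.1.16. HTSeq assigned reads to genes. The methods name mm10 for this step and the submitters' processing notes name mm9. The HTSeq version, annotation and strand setting are not given in the sources used here. The table the authors deposited gives unnormalized read counts for each gene, with a column for each clone. Totals were 25261357, 22594316 and 24791198 counts, so that 3 counts were 0.121, 0.133 and 0.119 CPM in clones 1, 2 and 3.

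CPM were computed with TMM factors (0.984, 0.998 and 1.02) of edgeR 4.0.16 in R 4.3.3. Alternatives were DESeq2 1.42.0 size factors, total counts, filters of 1 count or 1 CPM, transcript in place of exon length, a pseudocount of 0.5 and leaving out each clone. No test was run, since all samples are of 1 condition. Positions, lengths and proteins came from GENCODE M21 on GRCm38, independent of the counting, and 99.7% of gene names matched. Proteins were aligned with Biopython 1.88 (BLOSUM62), and intervals used scipy 1.17.1 and statsmodels 0.14.6. The scaling and fold calls were run on simulated Poisson counts with known changes placed in clone 2. These counts had no other spread between clones beyond counting error, unlike the real ones, so this run checks the computation only.

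The 5 members, the gene lists and the fold calls were chosen with earlier results of these data known. The named genes are the members, genes of the lists, genes that overlap or neighbour a member, and, for members that average 10 CPM or more, the 5 genes nearest in pattern among genes that average 100 CPM or more. ChIP-seq and imaging of the study were not analysed here. One gene of the glial and neuronal list is not reported here.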

Additional observations from a re-analysis of the deposited data

How the results depend on the processing

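Of 107 values computed under an alternative, 88 kept their size and 19 moved. The limits were the spread between clones, the counting error or, for numbers of genes, 1.5 times. A change of direction was met in 0, but levels, folds and numbers of genes have no direction to change. Leaving out 1 of 3 clones cannot shift a mean by as much as the SD. Mean levels, shares and ratios without 1 clone therefore had to keep their size by this rule. The fold of Fn1 between clones was 1.73 with total counts and 1.22 to 1.76 when 1 clone was left out, and that of Tnc was 1.44 and 1.01 to 1.42. The number of genes past 1.5-fold, 2719 of 12218, was 4507 with at least 1 count in every clone and 1155 to 2142 when 1 clone was left out, and the number past 2-fold, 1024, was 2426 and 198 to 820. Leaving out a clone compares 2 libraries in place of 3, which by construction can lower a highest-to-lowest fold or leave it unchanged, but cannot raise it. The mean level of Fn1 was 22856 to 30646 CPM and that of Tnc 6163 to 7448 CPM without 1 clone, and the ratio of Fn1 to Tnc per kb was 2.14 to 3.31. The calls among the gene lists without clone 2 were added after seeing the data. The 5 nearest genes of Fn1 and of Tnc were the same with a pseudocount of 0.5. No paired analysis was possible because all samples belong to 1 group. Depth limited Tnr and Tnxb, at 0 to 1 and 9 to 26 counts.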
